A study of Mus musculus with 13 samples.

Results

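Genes that mark neutrophils in the mouse, namely S100a8, S100a9, Retnlg, Mmp8, Il1b, Cxcr2, Csf3r, Ly6g, Trem1 and Clec4d, were followed in lung RNA from mice that breathed normal or high oxygen. They were chosen by symbol among the 32544 gene symbols of the count table, and all 10 were found. The samples were lungs of wild-type (WT) C57BL/6J male mice, delivered at 7 weeks of age and kept for 5 days at 21% oxygen (Normoxia, 7 libraries) or 80% oxygen (Hyperoxia, 6 libraries). All lungs were perfused with cold DPBS before freezing, which removes part of the blood but leaves cells held in the tissue. Libraries were made by Quant-seq, in which each polyadenylated transcript is sequenced from its 3′ end only and a count therefore depends little on transcript length.

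Neutrophils are short-lived white blood cells that are made in the bone marrow, circulate, and are held in large numbers in the capillaries of the lung. They leave the marrow under the cytokine G-CSF and move toward CXC chemokines, and they carry proteases and antimicrobial proteins in granules that are filled during their maturation. The genes of most granule proteins are transcribed in the marrow and are largely silent in the mature cell, while those of S100a8, S100a9, Cxcr2 and Il1b are transcribed in circulating cells. Not all of the 10 genes are specific, since monocytes and macrophages can also transcribe Il1b, Trem1, Clec4d and, at lower levels, S100a8 and S100a9.

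The sequences before the start sites of 3 of the genes are shown because Mmp8 was the single gene of the 10 that passed the test between the groups, and because S100a8 and S100a9 are the neighboring pair that it is set against below. They come from RefSeq on GRCm38.p6 and are written 5′ to 3′ on the gene's own strand, ending at the base before RefSeq's start site. The GENCODE annotation used for gene positions below starts S100a8 earlier, so that 93 of the 250 bases shown for it lie inside the gene as GENCODE draws it, against 0 for Mmp8 and S100a9. Capitals mark the letters searched on both strands, GAGGAAG (also read as its reverse complement), a core of sites bound by PU.1, and TTGCNNAA, a form of the sites bound by C/EBP proteins. Both factors drive genes of the neutrophil lineage. The Mmp8 stretch lay at chr9:7558179-7558428 on the plus strand, the S100a8 stretch at chr3:90668821-90669070 on the plus strand, and the S100a9 stretch at chr3:90695722-90695971 on the minus strand.
Mmp8: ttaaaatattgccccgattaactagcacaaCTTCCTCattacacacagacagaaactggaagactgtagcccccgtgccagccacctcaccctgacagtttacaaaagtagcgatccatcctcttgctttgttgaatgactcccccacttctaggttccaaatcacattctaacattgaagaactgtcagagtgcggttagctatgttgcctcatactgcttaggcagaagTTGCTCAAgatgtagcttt
S100a8: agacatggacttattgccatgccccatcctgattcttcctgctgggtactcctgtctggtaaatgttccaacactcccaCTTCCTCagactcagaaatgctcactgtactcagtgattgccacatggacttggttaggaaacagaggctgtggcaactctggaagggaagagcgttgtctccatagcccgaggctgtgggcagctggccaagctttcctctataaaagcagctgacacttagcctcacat
S100a9: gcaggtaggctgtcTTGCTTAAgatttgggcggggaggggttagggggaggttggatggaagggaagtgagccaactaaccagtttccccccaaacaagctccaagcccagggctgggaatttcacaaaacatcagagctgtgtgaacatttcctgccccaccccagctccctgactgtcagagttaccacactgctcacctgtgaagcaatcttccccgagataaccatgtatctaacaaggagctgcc
The Mmp8 stretch held both strings, with first bases at positions -220 (PU.1) and -19 (C/EBP) from the start site. The S100a8 stretch held the PU.1 string at -171, and the S100a9 stretch the C/EBP string at -236. In windows of 300 bases around the start, 5 of the 10 genes held the PU.1 string and 4 held the C/EBP string. Among all 32851 RefSeq windows of the same length, 13.6% held the PU.1 string and 10.8% the C/EBP string. These shares are per window, whereas a gene was counted if any of its windows held the string, and Ly6g had more than a single window. The 2 strings do not overlap in the stretches shown, and a match is a description of the letters only.

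The total count was between 1607111 and 3387736 in the normoxic libraries and between 2029006 and 4540288 in the hyperoxic libraries, so that 3 counts, the floor used here, corresponded to 0.656 to 1.84 CPM. CPM, the counts scaled to a common library total, are given after TMM scaling, which corrects for differences in RNA composition. Hyperoxia 1 stood apart: its log2 CPM correlated with those of the other 12 libraries at 0.721 to 0.833 across genes, against 0.854 to 0.967 among the others, and results that rest on it are given with and without it. Whether samples came from separate animals is not said for each library, and p-values measure the spread between these samples. In bulk lung RNA, fewer cells of a type and less RNA per cell cannot be told apart.

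Of the 10 genes, 7 had enough counts to be tested and 1 of these, Mmp8, rose in hyperoxia. The other 6, S100a8, S100a9, Retnlg, Il1b, Cxcr2 and Clec4d, did not pass, and Csf3r, Trem1 and Ly6g fell under the filter on low counts. Across all 12496 genes tested with edgeR's quasi-likelihood test, 11.8% were called higher and 10.8% lower at an adjusted p below 0.05. None of the 7 was called lower, none had an unadjusted p under 0.05 in that direction (0 of 7), and DESeq2 and limma-voom also called 0 lower and 1 higher. The median log2 fold change of the 7 was 0.02, beside -0.03 over all genes tested. The groups overlapped for all 7, whereas 10.8% of all genes tested had no overlap between groups.

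**Figure D1:**
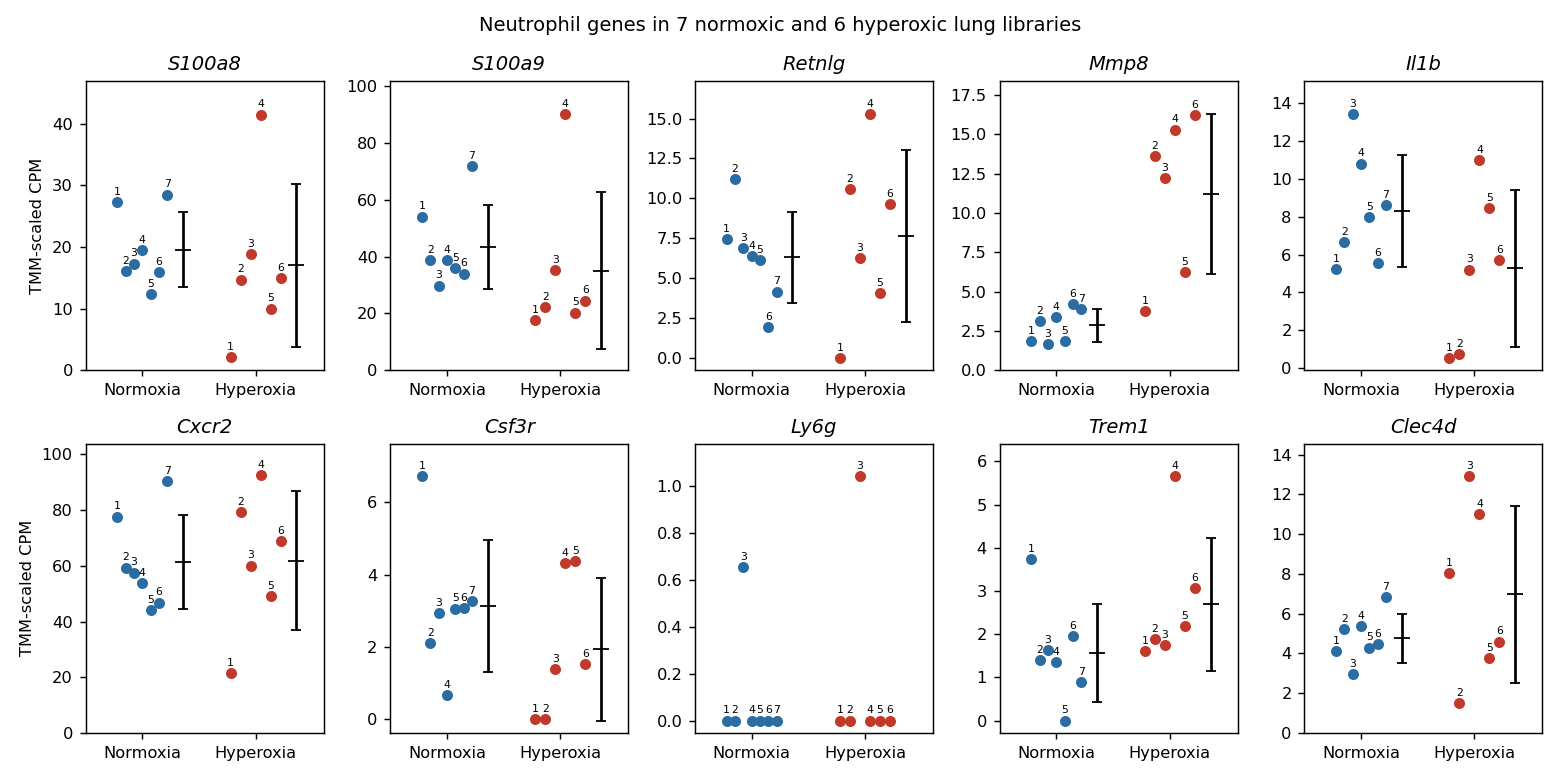
TMM-scaled CPM (linear y axis, a separate scale for each gene) of the 10 genes in each library, with blue points for Normoxia, red points for Hyperoxia, the replicate number above each point, and a bar for the mean ± SD except for Ly6g. Mmp8 lies above every normoxic library in 5 of 6 hyperoxic libraries, whereas for S100a8, S100a9, Retnlg and Cxcr2 Hyperoxia 4 lies highest and Hyperoxia 1 lowest.

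Mmp8 encodes neutrophil collagenase, a matrix metalloproteinase stored in granules that cleaves fibrillar collagen. Its gene lies on chromosome 9 (GRCm38, 7558456 to 7568485, plus strand). In normoxia the level ran from 1.64 CPM to 4.18 CPM with a median of 3.14 CPM, from 3 to 15 counts per library. In hyperoxia it ran from 3.75 to 16.2 CPM with a median of 12.9 CPM, from 7 to 74 counts per library. The 5 libraries Hyperoxia 2 to 6 lay above every normoxic library, and Hyperoxia 1 lay inside the normoxic range. The log2 fold change was 1.95 (SE 0.35, n = 7 and 6, edgeR adjusted p = 9.8e-04), a fold of 3.87 with a 95% interval of 2.25 to 6.65. An exact two-sided permutation test of the mean log2 CPM, which differed by 1.67, gave p = 0.0035, where 0.00117 is the smallest p this design can give. Mmp8 passed the filter (3.36 CPM in at least 6 libraries) with 3 normoxic and 6 hyperoxic libraries at or above it, so that its presence among the genes tested depended on hyperoxia.

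The rise of Mmp8 did not rest on 1 library. Leaving out each library in turn gave log2 fold changes of 1.83 to 2.12, with 2.12 (edgeR adjusted p = 7.6e-05) without Hyperoxia 1. The library names fall into 2 runs of letters, B to M (Normoxia 1 to 5, Hyperoxia 1 to 3) and O to S (Normoxia 6 and 7, Hyperoxia 4 to 6). The mean log2 CPM of Mmp8 was higher in hyperoxia by 1.66 within the first run and by 1.39 within the second. Among libraries O to S alone the edgeR log2 fold change was 1.64 (adjusted p = 0.0391), and among B to M alone Mmp8 did not pass the filter.

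**Figure D2:**
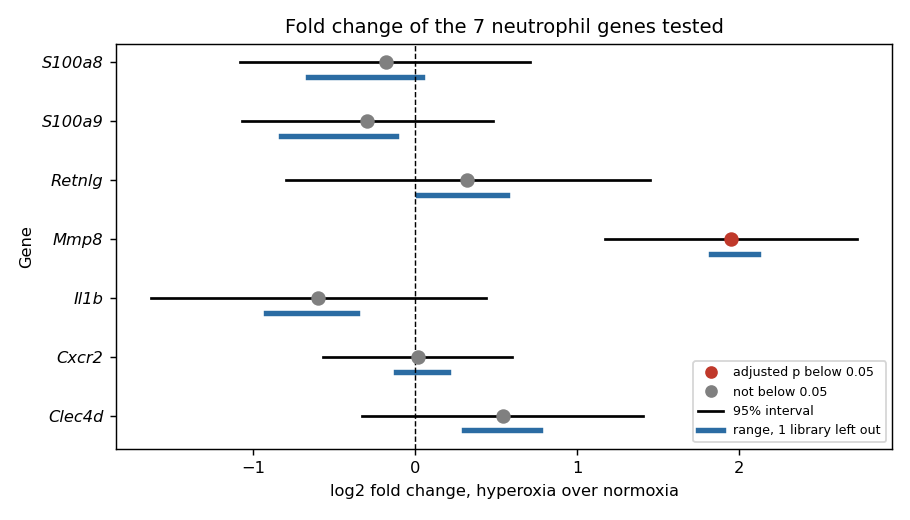
log2 fold change of hyperoxia over normoxia (x axis) for the 7 genes tested, with 95% intervals in black, points in red where the edgeR adjusted p was below 0.05, and blue bars for the range when each of the 13 libraries was left out in turn. The interval of Mmp8 runs from 1.17 to 2.73, and the intervals of the other 6 include 0.

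S100a8 and S100a9 encode the calcium-binding proteins that pair to form calprotectin, the main soluble protein of the neutrophil cytosol. The genes lie 22597 bases apart on chromosome 3 (GRCm38, 90668978 to 90670035 on the plus strand and 90692632 to 90695721 on the minus strand). S100a8 ran from 12.3 to 28.5 CPM in normoxia with a median of 17.3 CPM, and from 2.14 to 41.5 CPM in hyperoxia with a median of 14.8 CPM. Of the hyperoxic libraries, 2 lay below all normoxic libraries, 1 lay above all of them and 3 lay between. Its log2 fold change was -0.18 (SE 0.41, edgeR adjusted p = 0.792), with a 95% interval of -1.08 to 0.71, and it became 0.04 (adjusted p = 0.936) without Hyperoxia 1.

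S100a9 ran from 29.8 CPM to 72.0 CPM in normoxia with a median of 38.7 CPM, and from 17.7 to 90.2 CPM in hyperoxia with a median of 23.4 CPM. Here 4 hyperoxic libraries lay below every normoxic library and Hyperoxia 4, at 90.2 CPM, lay above them all. The log2 fold change was -0.30 (SE 0.35, edgeR adjusted p = 0.591), with a 95% interval of -1.07 to 0.48. Without Hyperoxia 4 it became -0.83 (adjusted p = 0.0271), so that 1 library decided whether S100a9 was called lower, and without Hyperoxia 1 it was -0.15 (adjusted p = 0.777). The exact permutation test over all 13 libraries gave p = 0.203 for S100a9 and p = 0.379 for S100a8.

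There were 1.72 to 2.95 S100a9 counts per S100a8 count in the normoxic libraries and 1.51 to 2.18 in Hyperoxia 2 to 6. In Hyperoxia 1 the value was 8.25, from 4 S100a8 counts and 33 S100a9 counts. The 2 genes thus kept a like ratio in 12 libraries and departed from it in the library that stood apart.

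Retnlg encodes resistin-like gamma, a secreted protein of the resistin family that is enriched in mature neutrophils of mice. Its gene lies on chromosome 16 (48872621 to 48874496, plus strand). It ran from 1.95 to 11.2 CPM in normoxia, with a median of 6.39 CPM, and from 0 to 15.3 CPM in hyperoxia, with a median of 7.94 CPM. Hyperoxia 1 held 0 counts, where 3 counts would be 1.61 CPM, and Hyperoxia 4 was the highest of all 13 libraries. The log2 fold change was 0.32 (SE 0.51, edgeR adjusted p = 0.695) with a 95% interval of -0.80 to 1.45, whereas the mean log2 CPM differed by -0.13 (exact permutation p = 0.861), so that the sign differed between the 2 measures. The value was 0.57 without Hyperoxia 1 (edgeR adjusted p = 0.268) and 0.02 without Hyperoxia 4 (adjusted p = 0.988). Within the libraries B to M it was -0.37 (adjusted p = 0.765) and within O to S 1.66 (adjusted p = 0.0833), and the difference between the runs was not called (interaction 2.05, adjusted p = 0.540). Retnlg belongs to a family of similar genes among which reads could be split, and its counts are uncertain to that extent.

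Il1b encodes interleukin-1 beta, which is made as an inactive precursor and released after cleavage by caspase-1, and which acts on endothelium and other cells through Il1r1. Its gene lies on chromosome 2 (129364570 to 129371139, minus strand) and overlaps an antisense gene, Il1bos. Whether the counting used the strand is not given in the sources used here, and reads from the 2 cannot be told apart. In normoxia it ran from 5.23 CPM to 13.4 CPM, with a median of 7.96 CPM, and in hyperoxia from 0.536 to 11 CPM, with a median of 5.45 CPM. Hyperoxia 1 held 1 count, and 3 hyperoxic libraries lay below the whole normoxic range. The log2 fold change was -0.60 (SE 0.47, edgeR adjusted p = 0.400), with a 95% interval of -1.63 to 0.44, and it was -0.38 (adjusted p = 0.515) without Hyperoxia 1. Within the libraries B to M it was -1.88 (adjusted p = 0.107) and within O to S it was 0.22 (adjusted p = 0.722). The difference between the 2 runs was not called (interaction 2.15, adjusted p = 0.538), and Il1b was the 1 gene of the 7 with an unadjusted interaction p under 0.05. Of all 12496 genes tested, 1158 had such an unadjusted p and 0 were called.

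Cxcr2 encodes the receptor through which neutrophils respond to the chemokines Cxcl1, Cxcl2, Cxcl3 and Cxcl5. Its gene lies on chromosome 1 (74153989 to 74161246, plus strand). It ran from 44.1 to 90.4 CPM in normoxia, with a median of 57.6 CPM, and from 21.4 to 92.6 CPM in hyperoxia, with a median of 64.5 CPM. Of the hyperoxic libraries 4 lay inside the normoxic range, Hyperoxia 4 just above it and Hyperoxia 1 below it. The log2 fold change was 0.02 (SE 0.26, edgeR adjusted p = 0.976) with a 95% interval of -0.57 to 0.60, the narrowest of the 7, and 0.20 (adjusted p = 0.465) without Hyperoxia 1.

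Csf3r encodes the G-CSF receptor, which controls the production and release of neutrophils (chromosome 4, 126024550 to 126044440, plus strand). It was not tested for want of counts: the normoxic libraries held 2 to 18 counts each (0.673 to 6.72 CPM, median 3.06 CPM), and the hyperoxic libraries 0 to 16 (0 to 4.38 CPM, median 1.46 CPM). Hyperoxia 1 and 2 held 0 counts, and the other 4 hyperoxic libraries lay inside the normoxic range. With no filter the log2 fold change was -0.56 (SE 0.62, edgeR adjusted p = 0.580), and without Hyperoxia 1 as well it was -0.36 (adjusted p = 0.694).

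Ly6g encodes the surface protein that the antibodies most used to count mouse neutrophils recognize (chromosome 15, 75155240 to 75159126, plus strand). It was at or under the floor throughout, with 2 counts in Normoxia 3, 3 counts in Hyperoxia 3 and 0 counts in the other 11 libraries, and no fold is given. Reads could also be shared with similar genes of the Ly6 family. A defining marker of the cell type was thus close to 0 at this depth in libraries where S100a9 and Cxcr2 held at least 33 and 40 counts each.

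Trem1 and Clec4d encode surface receptors that signal through ITAM adaptors. Trem1 amplifies inflammatory signaling through Tyrobp, and Clec4d, also named Mcl, pairs with Clec4e and signals through Fcer1g. Trem1 (chromosome 17, 48232768 to 48246924, plus strand) overlaps a processed pseudogene on the other strand and was not tested. It had 0 to 3.73 CPM in normoxia, with a median of 1.40 CPM, and 1.61 to 5.65 CPM in hyperoxia, with a median of 2.04 CPM. The highest value was in Hyperoxia 4, and the other 5 hyperoxic libraries lay inside the normoxic range. With no filter its log2 fold change was 0.79 (SE 0.51, edgeR adjusted p = 0.327), and without Hyperoxia 1 as well it was 0.88 (adjusted p = 0.264).

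Clec4d (chromosome 6, 123262111 to 123275265, plus strand) ran from 2.94 to 6.84 CPM in normoxia, with a median of 4.46 CPM, and from 1.51 to 12.9 CPM in hyperoxia, with a median of 6.32 CPM. Its pattern over the hyperoxic libraries differed from that of the other genes. Hyperoxia 1, 3 and 4 lay above all normoxic libraries and Hyperoxia 2 below them all. The log2 fold change was 0.54 (SE 0.39, edgeR adjusted p = 0.363), with a 95% interval of -0.33 to 1.41, and it was 0.52 (adjusted p = 0.374) without Hyperoxia 1. It ran from 0.30 without Hyperoxia 3 to 0.77 without Hyperoxia 2, and was 0.26 with limma-voom and 0.19 with quality weights added.

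The hyperoxic libraries differed among themselves more than the normoxic ones did for each of these 7 genes. The SD of log2 CPM in normoxia and hyperoxia was 0.42 and 1.29 for S100a8, 0.43 and 0.85 for S100a9, 0.69 and 1.65 for Retnlg, and 0.45 and 0.78 for Mmp8. It was 0.46 and 1.39 for Il1b, 0.37 and 0.74 for Cxcr2, and 0.33 and 0.99 for Clec4d. The median of the 7 was 0.43 in normoxia and 0.99 in hyperoxia, beside 0.32 and 0.49 over all genes tested, of which 77.3% also had the larger SD in hyperoxia. Without Hyperoxia 1 the SD was larger in hyperoxia for 5 of 7 genes, with a median of 0.74, against 57.1% of all genes and a median of 0.36. The wider spread was therefore shared by most genes, and its excess in the 7 neutrophil genes is given as a description with no test. The genes compared were not matched for level. Of the genes under the filter, the SD in normoxia and hyperoxia was 0.73 and 1.31 for Csf3r and 0.37 and 0.55 for Ly6g. For Trem1 it went the other way, with 0.83 and 0.56.

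**Figure D3:**
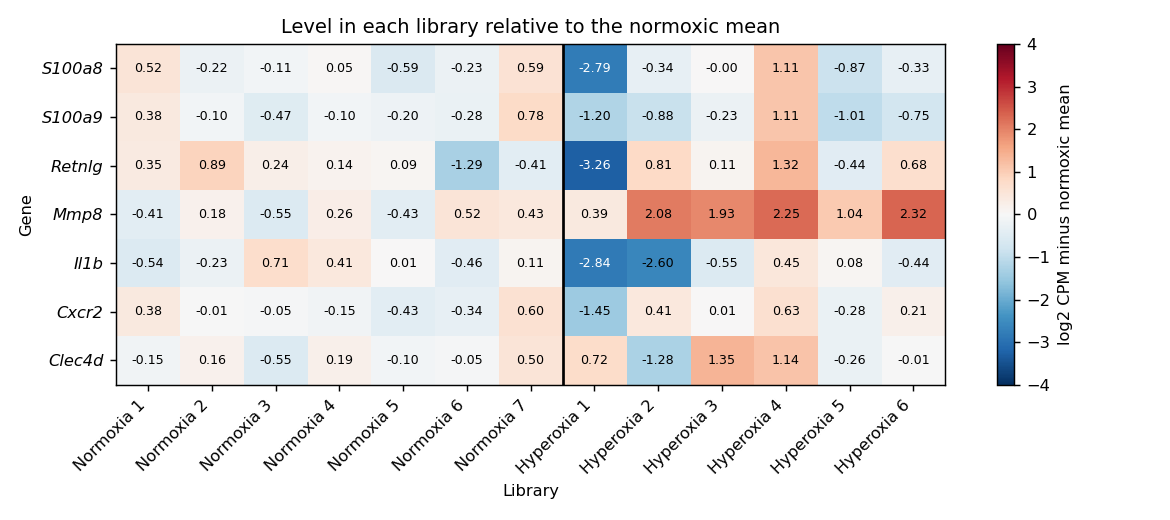
log2 CPM (prior count of 2) minus the mean of the 7 normoxic libraries, for the 7 genes tested (rows) in each of the 13 libraries (columns), with red for higher, blue for lower and the value in each cell. Hyperoxia 1 is at -2.79 for S100a8 and -3.26 for Retnlg, Hyperoxia 4 is positive for every gene, and Mmp8 is positive in all 6 hyperoxic libraries.

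A pair of libraries lay at the ends of this spread. Hyperoxia 4 was the highest of the 6 hyperoxic libraries for 5 of the 7 genes and lay above the normoxic range for 6. Hyperoxia 1 was the lowest of the 6 for 6 of the 7 and lay below the normoxic range for 5. Hyperoxia 1 also stood apart across genes in general. How often all genes tested took such positions in these libraries was not computed, so the counts describe the 7 genes only. The summed level of the 10 genes was 116 to 219 CPM in normoxia (mean 151 ± 38.1, SD, n = 7). It was 55.2 CPM in Hyperoxia 1, 145 in Hyperoxia 2, 155 in Hyperoxia 3, 287 in Hyperoxia 4, 108 in Hyperoxia 5 and 149 in Hyperoxia 6 (mean 149.9 ± 76.9, SD, n = 6). The means were within 1 SD of each other, and the hyperoxic libraries spanned a wider range on both sides.

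Markers of other cells did not all follow the same order. The summed level of the 6 erythroid markers, a sign of residual blood, was 405 CPM in Hyperoxia 4 and 479 in Hyperoxia 1, with medians of 1729 CPM in normoxia (194 to 3401) and 358 CPM in hyperoxia (169 to 2864). Residual blood markers were thus mostly lower in the hyperoxic libraries, and the ranges overlapped through Normoxia 6 (194 CPM) and Hyperoxia 2 (2864 CPM). The 7 platelet markers summed to 52.2 CPM in Hyperoxia 4 and 41.3 CPM in Hyperoxia 1, inside the normoxic range of 35.4 to 61.3. The 8 alveolar macrophage markers summed to 564 CPM in Hyperoxia 4, the highest of the 13 libraries, and to 42.9 CPM in Hyperoxia 1, the lowest. In Hyperoxia 4 most of that was Chil3, named after its values were seen, a gene of alveolar macrophages and of neutrophil precursors, with 456 CPM there and 13.9 CPM in Hyperoxia 1. The part of these cells in the spread of the neutrophil genes was not tested.

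Mmp8 was also set against other genes of the list within each library, a measure chosen after its values were seen and given without a test. Per 100 S100a9 counts there were 3.45 to 12.3 Mmp8 counts in normoxia (median 5.49) and 17.0 to 66.1 in hyperoxia (median 32.5). Per 100 Cxcr2 counts there were 2.40 to 8.93 in normoxia and 12.7 to 23.5 in hyperoxia. The groups did not overlap in either ratio, and Hyperoxia 1, which lay inside the normoxic range for Mmp8 itself, had 21.2 Mmp8 counts per 100 S100a9 counts and 17.5 per 100 Cxcr2 counts. Its ratios rest on 7 Mmp8 counts over 33 S100a9 and 40 Cxcr2 counts. In Hyperoxia 1 both S100a9 (17.7 CPM) and Cxcr2 (21.4 CPM) lay below their normoxic ranges. How often ratios of other genes separate the groups was not computed.

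**Figure D4:**
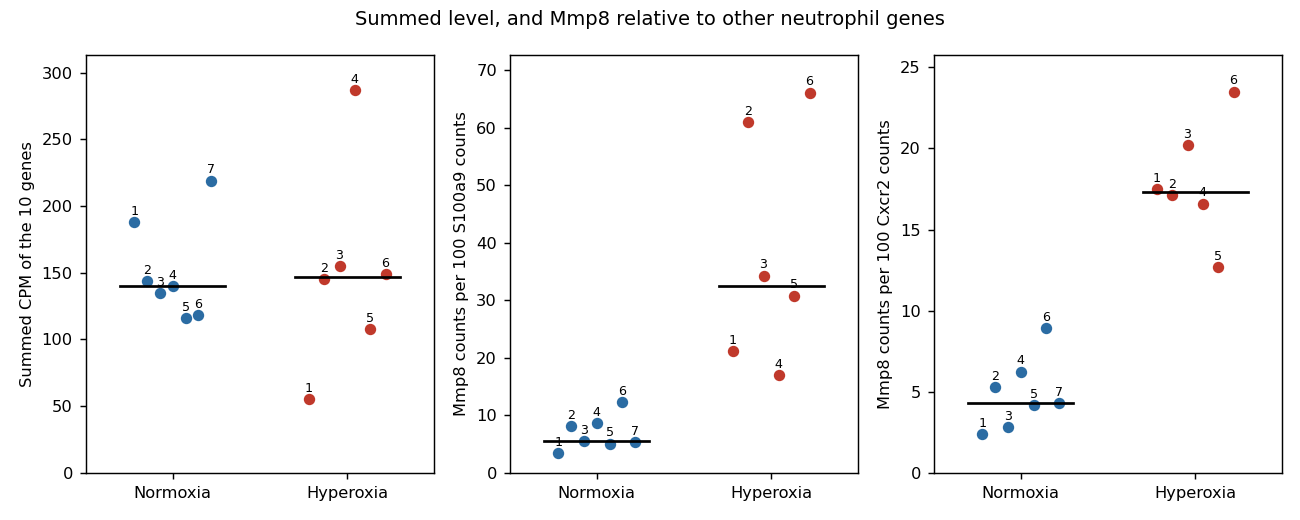
Summed TMM-scaled CPM of the 10 genes (left), Mmp8 counts per 100 S100a9 counts (middle) and Mmp8 counts per 100 Cxcr2 counts (right) in each library, on linear axes from 0, with replicate numbers above the points and a line at each group's median. The sums overlap between groups, and both ratios lie higher in each of the 6 hyperoxic libraries than in any of the 7 normoxic ones.

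The genes that varied most like the 7 were found by the Pearson correlation, over 13 libraries, of each gene's deviation from its group mean with the mean deviation of the 7. They were Csnk1g2 (0.922), Supt20 (0.908), Tdrp (0.905), Fam8a1 (0.900) and Zfp7 (0.895). Without Hyperoxia 1 the values were 0.863, 0.791, 0.776, 0.766 and 0.765. These points share each library's depth and composition, and the order is a description. Of the 7 genes themselves, S100a8 followed the mean of the other 6 most closely (0.934, and 0.857 without Hyperoxia 1). Clec4d had the lowest value with all libraries (0.156), but without Hyperoxia 1 it had 0.533, and Il1b (0.300), Mmp8 (0.342) and Retnlg (0.347) were then the lowest.

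Other neutrophil genes were grouped by role, and every count of a list below stands beside the 11.8% of all genes tested that were called higher and the 10.8% called lower, and the median of -0.03. With lists this short, 1 gene called in a direction is near those shares for most of them. Of 20 other surface genes 14 were tested, of which 1 rose and 4 fell, with a median log2 fold change of -0.54. Cxcr4, the receptor that holds neutrophils in the marrow and marks aged cells, fell by 2.29 on the log2 scale (SE 0.34, edgeR adjusted p = 2.0e-04). Ptafr and Fpr2, receptors for platelet-activating factor and formyl peptides, also fell. Lilr4b, an inhibitory receptor of myeloid cells, rose by 1.44 (SE 0.33, adjusted p = 0.0058). Lymphocytes also transcribe Cxcr4.

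Of 17 granule and oxidase genes 9 were tested, of which 1 rose and 3 fell, with a median of -0.68. Lcn2, the iron-binding lipocalin of specific granules that airway epithelium also makes, rose by 1.59 on the log2 scale (SE 0.42, edgeR adjusted p = 0.0126), from a mean of 39.8 ± 23.5 CPM to 119.8 ± 56.5 CPM (SD). Hp, haptoglobin, fell by 1.16 (SE 0.20, adjusted p = 7.2e-04), and Cybb, the membrane subunit of the phagocyte NADPH oxidase, fell too. Which cells of the lung held the Hp and Cybb transcripts was not tested. The genes of primary granules were close to 0: Elane held 0 counts in all 13 libraries, Ctsg 1 count in all, and Mpo 6 counts over the normoxic and 10 over the hyperoxic libraries. Prtn3 held 14 counts over the normoxic and 6 over the hyperoxic libraries. Of the secondary granules that also hold Lcn2, Camp and Ngp held 4 and 1 counts in all normoxic libraries and 10 and 3 counts in all hyperoxic libraries. Ltf, lactoferrin of the same granules, which glandular epithelium also makes, was higher than these, with 409 counts over the normoxic and 757 over the hyperoxic libraries, and did not pass (log2 fold change 0.74, SE 0.50, edgeR adjusted p = 0.321). Elane, Ctsg, Mpo, Prtn3, Camp, Ngp and Ltf were named after their values were seen.

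Of 16 other neutrophil-enriched transcripts 7 were tested, of which 1 rose and 2 fell, with a median of -0.52. Hdc, histidine decarboxylase, which mast cells and basophils also use, fell by 1.63 on the log2 scale (SE 0.39, edgeR adjusted p = 0.00662), and Mxd1, a partner of Max, had a log2 fold change of -0.85 (SE 0.23, adjusted p = 0.0137). Il1f9, an interleukin-36 cytokine that epithelium also makes, rose by 1.11 (SE 0.36, adjusted p = 0.0357). That call was lost without Hyperoxia 1 (0.66, adjusted p = 0.0637) and without each of Normoxia 1, 4, 5, 6 and 7 (1.04 to 1.12, adjusted p = 0.0577 to 0.0679), and also with limma-voom (0.93, adjusted p = 0.0564) and with limma on the deposited log values (0.88, adjusted p = 0.0618).

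**Figure D5:**
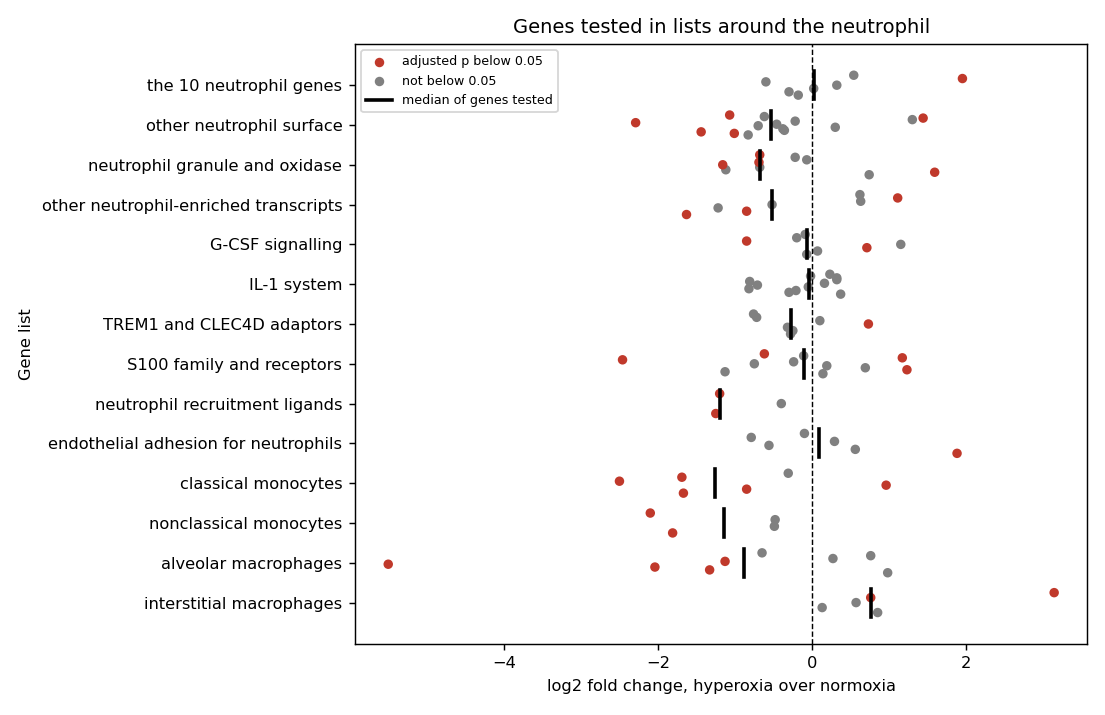
log2 fold change of hyperoxia over normoxia (x axis) for each gene tested (points) in the 10 neutrophil genes and in 13 lists of related genes (y axis), with red points for an edgeR adjusted p below 0.05, grey points for the others, and a black line at the median. Mmp8 is the red point at 1.95 in the top row, and the other neutrophil lists have medians of -0.54, -0.68 and -0.52.

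The signals that act on these genes were grouped by pathway. Of 14 ligands that recruit neutrophils 3 passed the filter and 2 fell. Cxcl15, lungkine, a chemokine of the lung epithelium, went from 3051 ± 409 CPM to 1279 ± 181 CPM (SD), a log2 fold change of -1.25 (SE 0.15, edgeR adjusted p = 2.2e-05). Ppbp, a platelet chemokine whose processed form also acts on Cxcr2, had a log2 fold change of -1.20 (SE 0.30, adjusted p = 0.0084). Of the other Cxcr2 ligands, 4 were too low to test: Cxcl1 held 23 counts over the normoxic and 65 over the hyperoxic libraries, Cxcl2 11 and 57, Cxcl3 27 and 17, and Cxcl5 16 and 99. Csf3, the gene of G-CSF, and Il17a held 0 counts in all 13 libraries.

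Of 10 G-CSF signaling genes 7 were tested and 2 passed: Stat3 rose by 0.71 on the log2 scale (SE 0.19, edgeR adjusted p = 0.015) and Cebpa, a C/EBP factor of granulocyte development, fell by 0.85 (SE 0.25, adjusted p = 0.0217). The Cebpa call ended without Normoxia 1, Normoxia 3 or Hyperoxia 5 (-0.75 to -0.72, adjusted p = 0.054 to 0.0598). Of 7 endothelial adhesion genes 6 were tested and Selp, the P-selectin that captures leukocytes, rose from 5.51 ± 1.06 CPM to 20.4 ± 6.81 CPM (SD), a log2 fold change of 1.88 (SE 0.25, adjusted p = 6.8e-05). Platelets also carry Selp.

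Of 15 genes of the IL-1 system 12 were tested and 0 were called by edgeR, DESeq2 or limma-voom, with 2 at an unadjusted edgeR p under 0.05. The receptor Il1r1 had a log2 fold change of 0.37 (SE 0.23, edgeR adjusted p = 0.283), and the antagonist Il1rn -0.21 (SE 0.24, adjusted p = 0.562). The decoy receptor Il1r2 held 8 counts over the normoxic and 7 over the hyperoxic libraries. Without Hyperoxia 2, Il1r1 was called higher (0.57, adjusted p = 0.0355).

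Of 9 adaptors and partners of Trem1 and Clec4d 7 were tested and Bcl10, a scaffold between Card9 and NF-kB, rose by 0.73 (SE 0.12, edgeR adjusted p = 5.8e-04). The adaptors Tyrobp (-0.28, SE 0.36, adjusted p = 0.635) and Fcer1g (-0.25, SE 0.36, adjusted p = 0.661) did not pass, and Clec4e held 65 counts over the normoxic and 47 over the hyperoxic libraries. Of 12 genes of the S100 family and of S100 receptors 11 were tested. Tlr4, a receptor of calprotectin, rose by 1.17 (SE 0.20, adjusted p = 7.1e-04), and S100a6, of fibroblasts and epithelium, by 1.23 (SE 0.17, adjusted p = 1.2e-04). S100g, a calcium-binding protein of alveolar epithelium, had a log2 fold change of -2.46 (SE 0.24, adjusted p = 5.1e-06), and Cd36, a fatty acid receptor of endothelium and macrophages, -0.62 (SE 0.19, adjusted p = 0.0234), a call that leaving out any of 5 libraries ended (Normoxia 4 and 5, Hyperoxia 2, 4 and 6, with adjusted p of 0.052 to 0.0667). The Cd36 call also ended with no filter (-0.58, edgeR adjusted p = 0.0526).

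Markers of other blood and lung cells moved as well. Of 6 classical monocyte markers 4 fell, among them Ms4a4c (-2.50, SE 0.31, edgeR adjusted p = 4.0e-05) and Ccr2 (-0.85, SE 0.21, adjusted p = 0.00806), while F13a1 rose by 0.96 (SE 0.17, adjusted p = 8.0e-04). Their summed level was 292 to 368 CPM in normoxia and 191 to 209 CPM in Hyperoxia 2 to 6, with 438 CPM in Hyperoxia 1. Most of the 438 CPM was Csf1r, named after its values were seen, at 357 CPM, against 149 to 209.6 CPM in normoxia. Of nonclassical monocyte markers 4 were tested and 2 fell, Spn by 1.81 and Adgre4 by 2.10. Of the 8 alveolar macrophage markers 4 fell, among them Ear2 (-2.04, SE 0.43, adjusted p = 0.00318) and Fabp1, with 169 counts over the normoxic and 3 over the hyperoxic libraries. The other 4 did not pass, with log2 fold changes of 0.98 for Marco, 0.76 for Chil3, 0.27 for Atp6v0d2 and -0.65 for Cidec (named after their values were seen), and the summed level of all 8 was 211 to 351 CPM in normoxia and 311 to 564 CPM in Hyperoxia 2 to 6. Of 5 interstitial macrophage markers tested 2 rose, Lyve1, which lymphatic endothelium also makes, by 3.14 (SE 0.22, adjusted p = 2.2e-07) and Ms4a7 by 0.76 (SE 0.26, adjusted p = 0.0498). The Ms4a7 call ended when any of 10 libraries was left out (Normoxia 1, 2, 3, 4, 5 and 7, Hyperoxia 1, 2, 3 and 5, with log2 fold changes of 0.63 to 0.84 and adjusted p of 0.0514 to 0.0942) and in each of limma-voom with and without quality weights, limma on the deposited log values, library size only, no filter and the letter run as a term (adjusted p from 0.0576 to 0.0807). Within O to S its value was 0.20 (adjusted p = 0.678).

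All 4 B cell markers fell, among them Cd79b by 2.28, and of 3 T and NK cell markers tested 2 fell, Cd3d by 1.14 and Cd8a by 1.69. Of 4 erythroid markers tested 1 fell (Hbb-bt, -2.39, edgeR adjusted p = 0.0188), and of 3 platelet markers tested 0 were called by edgeR, DESeq2 or limma-voom, with 1 at an unadjusted edgeR p under 0.05. Of 10 lung epithelial and endothelial markers 4 fell, all of them epithelial, among them Lamp3 by 1.73 and Sftpa1 by 1.69. The epithelial markers Ager (-0.11), Hopx (0.08) and Sftpb (-0.38) did not pass. The endothelial markers Cdh5 (0.18), Cldn5 (0.46) and Pecam1 (-0.79) did not pass either, and both sets were named after their values were seen. Markers of eosinophils, with Epx, Prg2 and Prg3 at 0 counts in all libraries, and of mast cells and basophils were too low to test, with sums of at most 12.3 and 4.16 CPM in any library. The part of these cell types in the levels of Mmp8, S100a8, S100a9 and the other neutrophil genes was not tested.

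Leaving out Hyperoxia 1 raised the share of all genes called, to 15.2% higher and 13.3% lower of 12752 genes tested, and the counts over the lists are read against those shares. Among the 10 neutrophil genes 1 was again called higher and 0 lower by edgeR. Called higher and lower were then 2 and 5 of the other surface genes, 1 and 4 of the granule and oxidase genes, and 0 and 3 of the other enriched transcripts. There were 3 lower among the ligands, 2 higher among the adhesion genes, 2 higher and 1 lower in G-CSF signaling, 1 higher and 1 lower among the adaptors, and 3 and 3 in the S100 list. Of the marker lists, 5 classical and 3 nonclassical monocyte markers and 3 T and NK cell markers were lower, 2 alveolar macrophage markers were higher and 3 lower, and 1 interstitial macrophage marker was higher. Of the lung epithelial and endothelial markers 1, the endothelial Cldn5, was then higher and 4 were lower.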

How the data were processed

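Lung RNA of 13 mouse samples was sequenced by Quant-seq (500 ng of RNA per library). Read quantification was done by the authors in BioJupies, which runs kallisto, and the counts per gene symbol were deposited as whole numbers, unfiltered and with replicates kept apart. They also deposited log10 values of CPM plus 1 by library total, which were recomputed from the counts to within 8.9e-16. The submitters' processing notes name mm10 and limma 3.54.2, and the annotation release and the use of strand are not given in the sources used here. No column was left unmapped (0). Counts are of reads, and no source used here names molecular identifiers, so floors (3 counts) cover counting error only.

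Groups came from the sample labels. Counts were tested in R 4.3.3 with edgeR 4.0.16 (TMM, filterByExpr with a minimum count of 10, quasi-likelihood test, Benjamini-Hochberg adjustment over 12496 genes, threshold 0.05). SEs were the absolute log2 fold change over the square root of F, and 95% intervals from a t distribution on 11 degrees of freedom. log2 CPM used a prior count of 2. Exact two-sided permutation tests (scipy 1.17.1) covered 1716 assignments. Alternatives used DESeq2 1.42.0 and limma 3.58.1, other scalings and filters, each library left out, and fits within the letters of the library names. Fits were tested on simulated counts. Within groups, all 36 pairs of libraries differed by more than sampling noise (chi-square per gene of at least 3.79).

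The 10 genes and the other lists were chosen with earlier results of these data known. All 10 are named. Of each other list at most 2 called genes in each direction with the smallest adjusted p are named with values, together with 12 direct partners, and others are listed by name only or said to have been chosen after their values were seen. Some genes that this rule would name are not reported here. The lists were of other neutrophil surface, granule and oxidase, and enriched genes, recruitment ligands, adhesion, IL-1, G-CSF signaling, adaptors, the S100 family, and markers of monocytes, macrophages, eosinophils, mast cells and basophils, platelets, erythroid, B, T and NK cells and lung epithelium and endothelium. Gene positions are from GENCODE vM21 (GRCm38), matched by symbol, and sequences from RefSeq (GRCm38.p6).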

Additional observations from a re-analysis of the deposited data

Results flagged for a closer look

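S100a9 in Hyperoxia 4 (90.2 CPM) stood far from the other 5 hyperoxic libraries, of which the nearest had 35.4 CPM. The gap was 0.755 of the whole range of the group. The total count of Normoxia 5 (1607111) stood far below that of the other 6 normoxic libraries, of which the nearest had 2696280, with a gap of 0.612 of the range. These were 2 of 18 groups of values examined, where 0.9 would be found by chance at 1 in 20. The difference in the effect of oxygen between libraries B to M and O to S, an interaction fitted after the data were seen, was called for 0 of the 7 neutrophil genes tested by edgeR, with 1 (Il1b) at an unadjusted p under 0.05, and the lowest adjusted p was 0.538. Over all 12496 genes tested the interaction was called for 0, with 1158 at an unadjusted p under 0.05.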

How the results depend on the processing

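The 7 neutrophil genes had 183 log2 fold changes under other settings, of which 166 kept both direction and side of the threshold, 1 passed it and 16 changed sign, all 16 in genes that were not called. The 44 other named genes had 1173, of which 1098 kept both, 67 lost the call, 4 gained it and 4 changed sign. The number of neutrophil genes called higher was 0 with at least 10 counts in every library and 0 within letters B to M, settings in which Mmp8 did not pass the filter, and the number called lower ran from 0 to 1 when each library was left out, with 1 (S100a9) without Hyperoxia 4. Mmp8 ran from 1.52 to 2.13 under the other settings, with adjusted p from 4.1e-06 to 0.0391 over all of them. S100a8 changed sign to 0.04 without Hyperoxia 1 (range -0.66 to 0.04 over libraries left out) and to 0.05 with no filter and no Hyperoxia 1, a setting added after the data were seen. Cxcr2 changed sign to -0.04 with limma-voom, -0.15 with limma on the deposited log values, -0.04 with library size only, -0.03 with at least 10 counts in every library, -0.06 with the letter run as a term and -0.09 within B to M, and ran from -0.12 to 0.20 over libraries left out. Retnlg changed sign to -0.11 with limma on the deposited log values and to -0.37 within B to M, and was 1.66 within O to S. Within O to S, Il1b became 0.22, Fcer1g 0.54, Il1rn 0.43 and Tyrobp 0.60, and within B to M Fam8a1 became -0.01. Over all genes, 718 were called higher and 626 lower with the replicate block, 679 and 441 within B to M, and 2270 lower with quality weights in limma-voom. Fewer samples or residual degrees of freedom enter the block and the letter runs, and for the other settings the cause was not tested. Library size alone moved the median of all genes from -0.03 to -0.10 and limma on the deposited log values to -0.16, so that changes there are relative to those shifts. Called higher and lower were 1179 and 1579 genes with library size alone and 1097 and 1729 with limma on the deposited values. The main fit called 1473 and 1346. With the replicate block Mmp8 was 2.01 (adjusted p = 0.00742) and the other 6 of the 7 genes tested were again not called. Of 35 other named genes called, the block ended 10 calls (Ccr2, Cd36, Cebpa, Il1f9, Lcn2, Lilr4b, Ms4a7, Mxd1, Ppbp and Stat3, adjusted p from 0.0508 to 0.197), B to M alone ended 15 and O to S alone 7. Same-numbered samples correlated at -0.325, 0.272, -0.238, -0.311, -0.0677 and -0.141, and 0 of 6 hyperoxic libraries correlated best with its own number, so the numbers were not taken as pairs. The median SD of log2 CPM in hyperoxia was 0.96 with library size only and 1.11 with a prior count of 0.5. At this depth Csf3r, Trem1 and Ly6g could not be tested, and a fold of Ly6g could not be seen.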
